A study of Mus musculus with 6 samples.

Results

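The lysosomal genes described here are 37 named genes of lysosomal proteases, glycan and sulfate hydrolases, lipid-handling proteins, membrane proteins, proton pump components and regulators. They were taken from the deposited count table by gene symbol. All 37 of 37 were found among its 22905 symbols, and all 37 passed the filter on low counts, which 14439 symbols passed in all. The RNA came from cells labelled as primary hepatic stellate cells, pericytes of the liver that store vitamin A, of mice with the genotype BucheKI/KI-Hep that had received CCl4 (carbon tetrachloride, a liver toxin). Both groups shared this genotype and CCl4, and the titles put 3 libraries under PBS and 3 under DOX. Per the series text, butyrylcholinesterase, an enzyme that cleaves choline esters, was overexpressed in hepatocytes, and stellate cells of DOX and PBS are compared here. The labels give no age or sex of the animals, do not say which promoter drives the introduced gene, and do not say whether replicates were separate animals, so a p-value measures the spread between these libraries, which may be technical. Libraries of animals without CCl4, or of DOX without the introduced gene, were not analysed here, so DOX itself and the introduced gene cannot be told apart.

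Lysosomes are acidic compartments in which proteins, glycans and lipids taken up by endocytosis or autophagy are degraded. The V-ATPase pumps in protons, cathepsins and glycosidases do the cutting, and membrane proteins such as LAMP1 and LAMP2 line the wall. Many lysosomal genes, but not all, carry the E-box CACGTG in the CLEAR element of their promoters, which TFEB, TFE3 and MITF bind. In the liver, Kupffer cells (the resident macrophages) and sinusoidal endothelial cells are rich in lysosomes, and stellate cells have them too.

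Promoter sequences are shown first, since the E-box is known from many lysosomal genes. RefSeq promoter windows of GRCm38.p6, from 250 bases before to 50 bases after a start site, were matched by symbol for 31 of the 37 genes. Ctsb, Ctsh, Npc1, Asah1, Galns and Atp6v0d2 had no entry. The letters CACGTG, a palindrome and so the same on both strands, were found in the windows of 10 of these 31 genes (32.3%), against 2187 of the 27025 genes of the whole promoter table (8.09%). With the preceding T of the CLEAR element (TCACGTG, either strand, a subset of the CACGTG matches) the counts were 9 of 31 (29.0%) and 4.29% of all genes. Each window below shows 1 match of each of the 10 genes in capitals, the one nearest the start site, with the bases on either side, 5′ to 3′ along the gene's strand, from RefSeq GRCm38.p6.
Ctsa, chr2:164833766-164833795, plus strand: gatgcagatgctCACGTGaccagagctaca
Ctsd, chr7:142387908-142387937, minus strand: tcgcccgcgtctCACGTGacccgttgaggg
Ctsl, chr13:64370739-64370768, minus strand: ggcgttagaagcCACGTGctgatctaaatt
Lgmn, chr12:102439124-102439153, minus strand: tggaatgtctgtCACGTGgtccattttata
Glb1, chr9:114401018-114401047, plus strand: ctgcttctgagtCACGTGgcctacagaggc
Gaa, chr11:119267811-119267840, plus strand: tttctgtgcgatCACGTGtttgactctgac
Gla, chrX:134601182-134601211, minus strand: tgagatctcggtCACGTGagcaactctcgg
Lamp1, chr8:13159134-13159163, plus strand: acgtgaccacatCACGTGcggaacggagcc
Mcoln1, chr8:3500462-3500491, plus strand: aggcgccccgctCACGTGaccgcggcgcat
Atp6v1a, chr16:44139373-44139402, minus strand: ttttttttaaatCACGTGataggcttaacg
Of these, Ctsl was the 1 gene without the flanking T on either strand. Lamp1 held 4 matches between 61 and 15 bases before its start site, and Ctsa, Ctsd, Gla and Mcoln1 held 2 each.

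Of the 4 genes that passed the test described below, Ctsc, Gla and Scarb2 had a promoter entry, and their windows are shown whole because they differ in these letters. Gla lies on the minus strand of chromosome X (window chrX:134600956-134601255). Capitals mark its 2 copies of CACGTG, 1 copy of the related M-box core CATGTG and 1 copy of GAGGAAG, an ETS site of the PU.1 type, read on the other strand.
Gla: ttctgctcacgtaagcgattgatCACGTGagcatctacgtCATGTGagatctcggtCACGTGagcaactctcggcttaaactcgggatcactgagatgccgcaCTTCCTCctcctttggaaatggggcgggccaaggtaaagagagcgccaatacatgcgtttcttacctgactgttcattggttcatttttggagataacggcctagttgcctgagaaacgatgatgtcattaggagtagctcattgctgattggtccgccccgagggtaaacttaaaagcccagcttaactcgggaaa
Scarb2 lies on the minus strand of chromosome 5 (window chr5:92505608-92505907), and its window held 1 copy of CATGTG, read on the other strand, and no CACGTG.
Scarb2: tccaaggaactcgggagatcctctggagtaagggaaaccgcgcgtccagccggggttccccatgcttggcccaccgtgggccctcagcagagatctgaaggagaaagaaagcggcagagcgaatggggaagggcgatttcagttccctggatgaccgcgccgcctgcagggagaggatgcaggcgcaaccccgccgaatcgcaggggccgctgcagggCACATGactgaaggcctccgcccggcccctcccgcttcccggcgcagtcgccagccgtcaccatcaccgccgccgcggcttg
Ctsc lies on the plus strand of chromosome 7 (window chr7:88277835-88278134), and its window held 2 copies of GAGGAAG, both read on the other strand, and neither E-box.
Ctsc: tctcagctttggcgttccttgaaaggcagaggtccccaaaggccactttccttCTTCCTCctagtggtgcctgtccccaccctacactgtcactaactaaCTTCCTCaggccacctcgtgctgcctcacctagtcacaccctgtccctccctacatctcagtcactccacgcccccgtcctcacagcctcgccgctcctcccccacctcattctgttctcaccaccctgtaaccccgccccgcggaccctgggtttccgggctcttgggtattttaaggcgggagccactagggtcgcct
CATGTG was found in 8 of the 31 genes (25.8%) and in 15.9% of all genes, and GAGGAAG in 8 of 31 (25.8%) and 15.4%. The AP-1 letters TGANTCA were found in 4 of 31 (12.9%) and 8.97%, in the windows of Glb1, Psap, Cd68 and Tfe3. A match is only a run of letters, and binding was not measured.

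The libraries held between 36220282 and 37707364 counts each, and a single read was worth 0.0253 to 0.0293 CPM (counts scaled to library size, with TMM factors for library composition). Where 3 values are listed for a group, they are those of replicates 1, 2 and 3 in that order. The 37 genes held between 2.98% and 3.56% of all counts in a library. The gene with the highest count of the whole table in each of the 6 libraries was Ctsb, which encodes the cysteine protease cathepsin B, with 291717 to 364237 reads. Per transcript length, as FPKM (which scales to library totals only and is used here to compare genes, not groups), Ctsb stood at 1730 ± 58.5 in PBS (SD, n = 3) and 1912 ± 160 in DOX (SD, n = 3). The aspartic protease gene Ctsd followed at 1544 ± 127 and 1433 ± 226 FPKM. Psap, the precursor of the saposins that help lipid hydrolases, stood at 1402 ± 318 and 1332 ± 158 FPKM, and its libraries overlapped those of Ctsd in both groups. The cysteine protease gene Ctsl stood at 1203 ± 76.1 and 825 ± 62.6 FPKM. The lowest were Tfeb, Mitf and Galns, between 1.41 and 3.85 FPKM in every library, whose order did not hold across libraries.

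**Figure D1:**
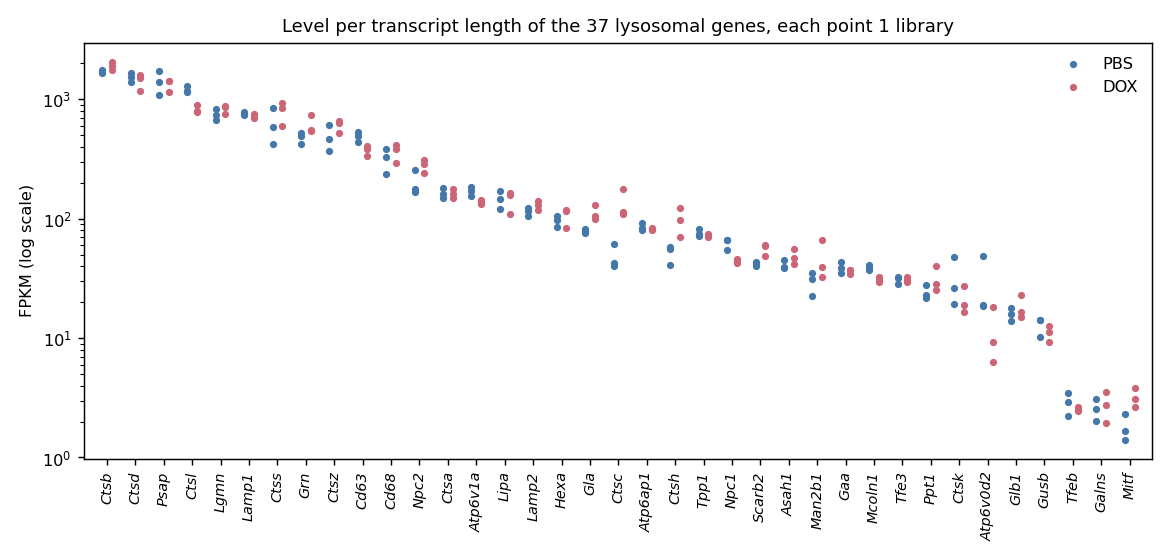
FPKM (vertical axis, log scale) of each of the 37 lysosomal genes, ordered by mean level, with 1 point per library (PBS blue, DOX red, 3 each). Ctsb, Ctsd and Psap are the highest, and Tfeb, Galns and Mitf the lowest.

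In DOX, 4 of the 37 genes rose and 0 fell. The risers were the protease genes Ctsc and Ctsh, the glycosidase gene Gla and the membrane protein gene Scarb2, with folds between 1.46 and 3.06. These are bulk libraries, in which a change in the number of cells of a type and a change in RNA per cell cannot be told apart. This is 10.8% of the 37, where 4.38% of all 14439 genes tested were called higher and 2.04% lower (edgeR's quasi-likelihood test, Benjamini-Hochberg adjusted p under 0.05 over all genes). At an unadjusted p under 0.05, 11 of the 37 were higher (15.9% of all genes) and 4 lower (12.7% of all genes). The 3 libraries of DOX all lay above the 3 of PBS for 12 of the 37 genes (16.9% of all genes) and all below for 4 (17.7% of all genes). The median log2 fold change of the 37 was 0.22, against -0.013 over all genes, and 28 of 37 values were positive (48.6% of all genes were). Scaled to library totals alone, which lowered the median of all genes to -0.14, the median of the 37 was 0.11 and 19 of 37 were positive. Without DOX replicate 1 the median of the 37 was 0.095 and without PBS replicate 3 it was 0.16, each with 24 of 37 positive. By library totals alone 3 were called higher and 2 lower, and 611 of all genes were higher and 730 lower in place of 632 and 294.

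DESeq2 called 7 of the 37 higher (11.6% of all genes) and 3 lower (7.03% of all genes). The 7 were the same 4 with Npc2, Mitf and Grn, and the 3 lower were Ctsl, Npc1 and Atp6v0d2. limma-voom called Ctsc, Gla and Scarb2 higher (4.02% of all genes) and 0 lower (1.95% of all genes). At its unadjusted p under 0.05, 12 of the 37 were higher and 5 lower, where 4088 of all 14439 genes passed in either direction.

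**Figure D2:**
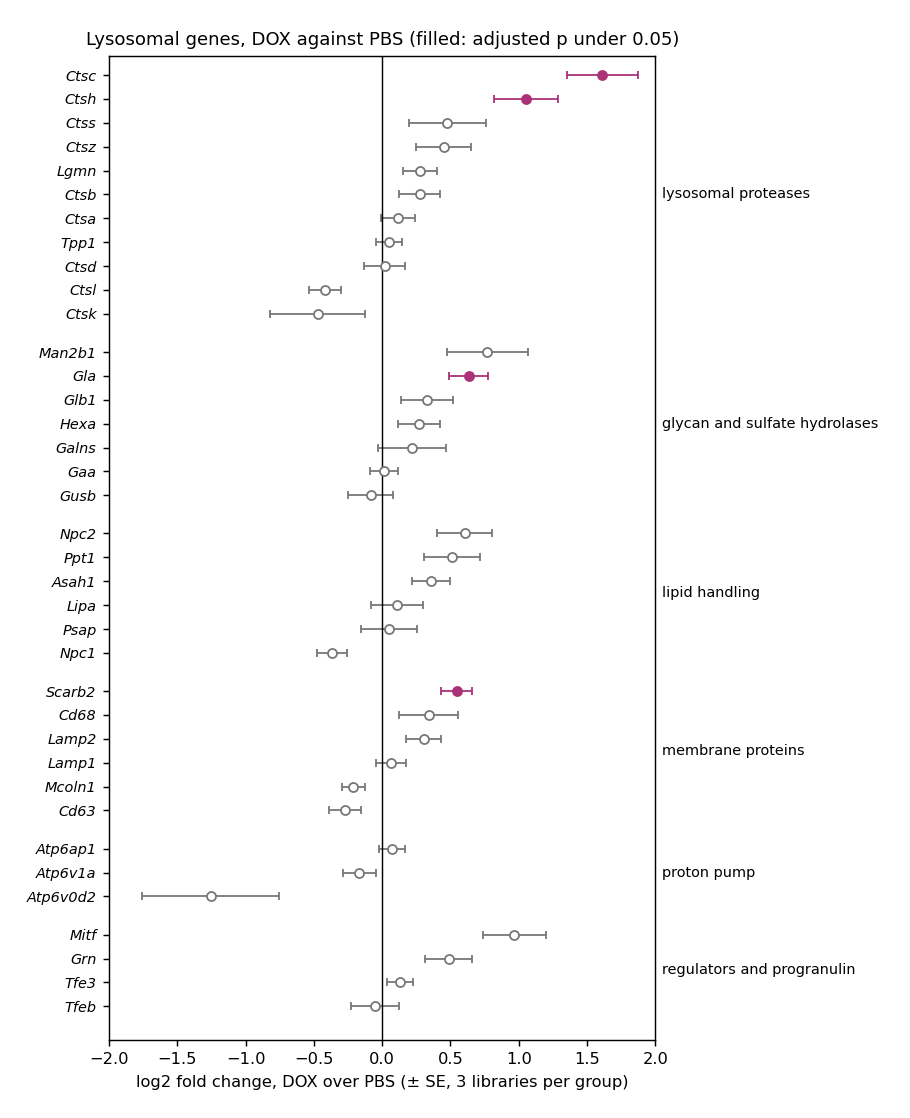
The log2 fold change of DOX over PBS with its SE (horizontal axis) for each of the 37 lysosomal genes, grouped by role, from 3 libraries per group. Filled points passed an edgeR adjusted p of 0.05, and these are Ctsc, Ctsh, Gla and Scarb2, all above 0.

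Among the 11 protease genes, Ctsc and Ctsh rose and 0 fell, and 9 of the 11 had a positive log2 fold change. Ctsc encodes cathepsin C, an exopeptidase that activates the serine proteases of immune cell granules, and lies on chromosome 7 from 88278024 to 88315861. It stood at 212, 315 and 219 CPM across PBS and at 1042, 625 and 614 CPM across DOX. Every DOX library was above every PBS library, and DOX replicate 1 was the highest. On the log2 scale DOX minus PBS was 1.61, with an SE of 0.26 (adjusted p = 0.0275 by edgeR), a 3.06-fold rise.

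Ctsh encodes cathepsin H, an aminopeptidase, on chromosome 9 from 90054267 to 90076095. It stood at 90.5, 91.3 and 64.6 CPM across PBS and at 224, 124 and 162 CPM across DOX. The groups did not overlap, and DOX replicate 1 was again the highest. DOX minus PBS came to 1.05 on the log2 scale, with an SE of 0.23 (adjusted p = 0.0470 by edgeR). Without DOX replicate 1 the log2 fold change was 0.81 (edgeR adjusted p = 0.115) for Ctsh and 1.32 (edgeR adjusted p = 0.0562) for Ctsc. The call of Ctsc was also lost without PBS replicate 2 or 3, and that of Ctsh without each of the libraries other than DOX replicate 2, in limma-voom (adjusted p = 0.0505) and with the replicate number as a block (edgeR adjusted p = 0.0517). Of all genes, edgeR called 0 without PBS replicate 2 or 3, so every gene shared those losses. It called only 85 of all genes without DOX replicate 1.

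Ctsl, which encodes the endopeptidase cathepsin L, pointed the other way and was not called by edgeR. It stood at 4016, 3970 and 4364 CPM across PBS and at 3016, 3046 and 3180 CPM across DOX. The groups did not overlap and were tight, with SDs of 215.5 and 87.6 CPM. On the log2 scale DOX minus PBS was -0.42, with an SE of 0.12 (adjusted p = 0.0795 by edgeR, DESeq2 adjusted p = 9.49e-05), and by library totals alone edgeR called it lower. In the GENCODE annotation of GRCm38, 26.8% of the exon bases of Ctsl are shared with an antisense gene, Gm47123, which was not analysed here, and strand use in counting was not given in the sources used here.

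Ctsb had a log2 fold change of 0.27 with an SE of 0.15 (adjusted p = 0.269 by edgeR), with 7734, 7997 and 7834 CPM across PBS and 10659, 8832 and 8990 CPM across DOX. All DOX libraries were above all PBS libraries on this scale. The ratio of Ctsl to Ctsb in FPKM, which no scaling of libraries can move, was 0.689, 0.658 and 0.739 across PBS and 0.375, 0.457 and 0.469 across DOX. The ratio of Ctsc to Ctsl was 0.0350, 0.0526 and 0.0333 across PBS and 0.229, 0.136 and 0.128 across DOX. Neither ratio overlapped between the groups, and both were chosen after the values were seen.

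Ctsd stood at 2649, 3025 and 2820 CPM across PBS and at 3146, 2398 and 3056 CPM across DOX, and the groups overlapped (edgeR adjusted p = 0.951 for a log2 fold change of 0.018 with an SE of 0.15). In the same annotation, 34.4% of the exon bases of Ctsd are shared with Gm49369 on the same strand, and Ctsb shares 12.8% with Fdft1 on the other strand, whereas Ctsc, Ctsh, Gla, Scarb2 and Mitf share none with another gene. Lgmn, which encodes the asparaginyl protease legumain, had a log2 fold change of 0.28 with groups that did not overlap (edgeR adjusted p = 0.195). Ctss and Ctsz, cathepsin genes with high levels in antigen-presenting cells, had log2 fold changes of 0.48 and 0.45 (edgeR adjusted p = 0.312 and 0.192). Both were highest within PBS in replicate 1 and lowest in replicate 3. Their log2 fold changes were 0.79 and 0.67 without PBS replicate 1, and 0.26 and 0.29 without PBS replicate 3. Ctsa and Tpp1, a carboxypeptidase and a tripeptidyl peptidase gene, had log2 fold changes of 0.12 and 0.047 (edgeR adjusted p = 0.590 and 0.786).

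Ctsk, which encodes the collagen-cutting cathepsin K known from osteoclasts, stood at 74.8, 28.9 and 39.2 CPM across PBS and at 32.5, 27.7 and 42.7 CPM across DOX. PBS replicate 1 stood alone and the other 5 libraries were alike. DOX minus PBS came to -0.47 on the log2 scale, with an SE of 0.35 (adjusted p = 0.413 by edgeR) and 0.0087 without PBS replicate 1.

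Of the 7 glycan and sulfate hydrolase genes, 1 rose, 0 fell and 6 had a positive log2 fold change. Gla encodes alpha-galactosidase A, which removes terminal galactose from glycolipids and is deficient in Fabry disease, on chromosome X from 134588169 to 134601005. It stood at 239, 217 and 222 CPM across PBS and at 424, 333 and 296 CPM across DOX. The PBS libraries were tight (SD 11.4 CPM) and the DOX libraries less so (SD 65.7 CPM), and all DOX libraries lay above those of PBS. On the log2 scale DOX minus PBS was 0.63, with an SE of 0.14 (adjusted p = 0.0480 by edgeR). It was 0.48 without DOX replicate 1 (edgeR adjusted p = 0.102), and the call was also lost without each PBS replicate, without DOX replicate 2, with RLE factors (edgeR adjusted p = 0.0504) and with the replicate number as a block (edgeR adjusted p = 0.0517). The losses without PBS replicates 2 and 3 were shared by every gene.

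Man2b1, the lysosomal alpha-mannosidase gene, had a larger but less even difference and was not called. Its 107, 164 and 145 CPM across PBS stood against 350, 168 and 192 CPM across DOX. The log2 fold change of 0.77 with an SE of 0.30 (adjusted p = 0.143 by edgeR) was 0.38 without DOX replicate 1, the library far above the rest. Hexa and Glb1, genes of beta-hexosaminidase and beta-galactosidase, had log2 fold changes of 0.27 and 0.33, Galns, a sulfatase gene of keratan sulfate breakdown, 0.22, Gaa, the glycogen-degrading alpha-glucosidase gene, 0.015, and Gusb, the beta-glucuronidase gene, -0.084, with edgeR adjusted p between 0.284 and 0.940. Without DOX replicate 1, Glb1 had 0.095 and Hexa 0.17, and without DOX replicate 3 Galns had 0.047. The sign of Gaa turned by library totals alone and in 4 of the leave-one-out fits, and that of Gusb without PBS replicate 1 or DOX replicate 2.

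Of the 6 lipid-handling genes 0 were called by edgeR or limma-voom and 2 by DESeq2, with 3 higher and 1 lower at an unadjusted p under 0.05. The 2 Niemann-Pick type C genes, whose proteins pass cholesterol to each other on its way out of the lysosome, pointed in opposite directions. Npc2, the soluble carrier, stood at 813, 551 and 521 CPM across PBS and at 1105, 834 and 927 CPM across DOX. Npc1, the membrane transporter, stood at 368, 353 and 294 CPM across PBS and at 261, 268 and 258 CPM across DOX. Neither gene had overlapping groups. DOX minus PBS came to 0.60 on the log2 scale, with an SE of 0.20 (adjusted p = 0.107 by edgeR, DESeq2 adjusted p = 0.0300) for Npc2 and -0.37 (SE 0.11, edgeR adjusted p = 0.0848, DESeq2 adjusted p = 0.0255) for Npc1. Without PBS replicate 1, edgeR called Npc2 (log2 fold change 0.83, adjusted p = 0.0408), and by library totals alone it called Npc1.

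Asah1 and Ppt1, which encode acid ceramidase and palmitoyl-protein thioesterase, had log2 fold changes of 0.36 and 0.51 (edgeR adjusted p = 0.145 and 0.156), and 0.21 and 0.27 without DOX replicate 1. Psap and Lipa, the latter the gene of lysosomal acid lipase, had 0.048 and 0.11 (edgeR adjusted p = 0.904 and 0.740), and both turned negative by library totals alone and without PBS replicate 3, and Psap also without DOX replicate 1.

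Of the 6 membrane protein genes, Scarb2 rose and 0 fell. Scarb2 encodes LIMP-2, the receptor that carries glucocerebrosidase to the lysosome, on chromosome 5 from 92441311 to 92505657. It stood at 194, 180 and 194 CPM across PBS and at 311, 242 and 276 CPM across DOX. The groups did not overlap, and the spread was wider in DOX (SD 34.6 CPM) than in PBS (SD 7.92 CPM). On the log2 scale DOX minus PBS was 0.54, with an SE of 0.11 (adjusted p = 0.0405 by edgeR) and 0.45 without DOX replicate 1 (edgeR adjusted p = 0.112). The call was also lost without each PBS replicate, without DOX replicate 3, by library totals alone (edgeR adjusted p = 0.0565) and with the replicate number as a block (edgeR adjusted p = 0.0517). Every gene of the table lost its call without PBS replicate 2 or 3.

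Lamp1, an abundant glycoprotein gene of the lysosomal wall, stood at 1603, 1657 and 1580 CPM across PBS and at 1818, 1669 and 1572 CPM across DOX (edgeR adjusted p = 0.745 for a log2 fold change of 0.064 with an SE of 0.11). The groups overlapped. Lamp2, whose product has a part in autophagy, had groups that did not overlap and a log2 fold change of 0.30 with an SE of 0.13 (adjusted p = 0.173 by edgeR). Cd68, a macrophage-rich relative of the LAMP genes, stood at 466, 387 and 277 CPM across PBS and at 562, 391 and 478 CPM across DOX (edgeR adjusted p = 0.341 for a log2 fold change of 0.34 with an SE of 0.21). Its groups overlapped through PBS replicate 1, and its log2 fold change was 0.52 without that library and 0.16 without PBS replicate 3. The tetraspanin gene Cd63 and the calcium channel gene Mcoln1 had log2 fold changes of -0.27 and -0.21, each with DOX libraries below all PBS libraries (edgeR adjusted p = 0.177 and 0.150).

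Of the 3 proton pump genes 0 were called by edgeR or limma-voom and 1 by DESeq2, with 1 lower at an unadjusted p under 0.05. Atp6v0d2, a V-ATPase subunit gene of osteoclasts and macrophages, had the lowest log2 fold change of the 37, -1.26 (SE 0.50, edgeR adjusted p = 0.154, DESeq2 adjusted p = 0.0399). It stood at 196, 71.2 and 73.4 CPM across PBS and at 40.8, 27.5 and 74.1 CPM across DOX. PBS replicate 1 was far above the rest, and DOX replicate 3 reached the level of the other PBS libraries. Without PBS replicate 1 the log2 fold change was -0.61 and without DOX replicate 3 it was -1.74. Atp6v1a, a catalytic subunit gene, and Atp6ap1, an accessory subunit gene, had -0.17 and 0.071 (edgeR adjusted p = 0.405 and 0.666), the latter negative by library totals alone.

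The last 4 genes are the regulators Tfeb, Tfe3 and Mitf and, beside them, the progranulin gene Grn. Of these 0 were called by edgeR or limma-voom. DESeq2 called 2, the regulator Mitf and Grn, the same 2 that were higher at an unadjusted p under 0.05. Mitf stood at 17.8, 23.7 and 14.5 CPM across PBS and at 45.4, 35.8 and 28.5 CPM across DOX. The groups did not overlap, and the log2 fold change was 0.97 (SE 0.23, edgeR adjusted p = 0.0530, DESeq2 adjusted p = 0.00160). Mitf was called by edgeR with no filter on low counts (adjusted p = 0.0325), with the replicate number as a block (0.0424) and without DOX replicate 3 (0.0410), and its log2 fold change was 0.79 without DOX replicate 1.

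Tfeb stood at 25.6, 20.7 and 15.9 CPM across PBS and at 20.3, 19.7 and 19.9 CPM across DOX, and all 3 DOX values lay inside the PBS range. Its log2 fold change was -0.052 (SE 0.17, edgeR adjusted p = 0.873) and 0.12 without PBS replicate 1. Tfe3 stood at 115, 123 and 126 CPM across PBS and at 145, 133 and 120 CPM across DOX, with overlapping groups and a log2 fold change of 0.13 with an SE of 0.095 (adjusted p = 0.410 by edgeR) that was -0.00034 by library totals alone. The ratio of Mitf to Tfeb in FPKM, chosen after the values were seen, was 0.484, 0.796 and 0.633 across PBS and 1.55, 1.26 and 0.995 across DOX. Grn, which encodes progranulin, a growth factor precursor also cut into granulins in lysosomes, had a log2 fold change of 0.49 with an SE of 0.17 (adjusted p = 0.122 by edgeR, DESeq2 adjusted p = 0.0426), with DOX libraries above all PBS libraries, and 0.31 without DOX replicate 1.

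**Figure D3:**
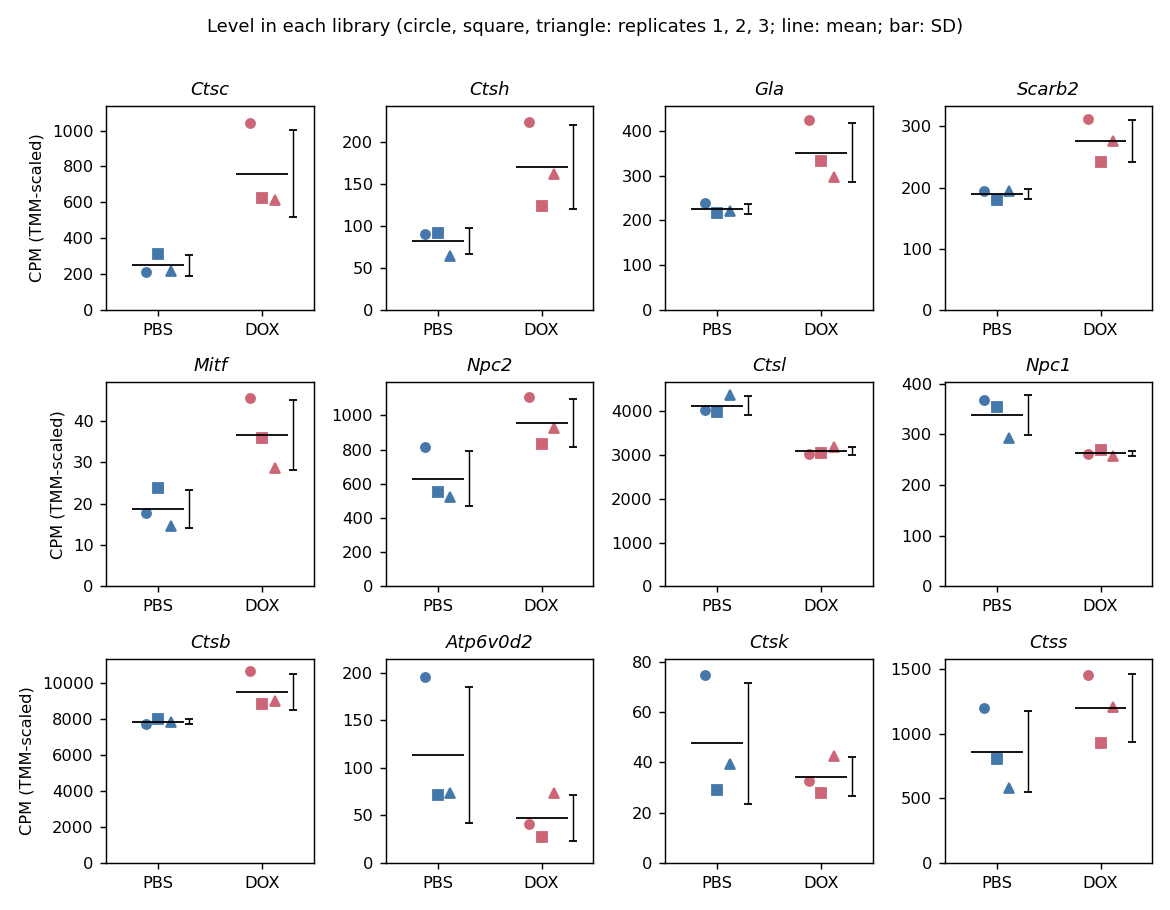
CPM in each library (vertical axes, from 0) for 12 of the lysosomal genes, with replicates 1, 2 and 3 as circle, square and triangle, the mean as a line and the SD as a bar. Ctsc, Ctsh, Gla and Scarb2 are higher in every DOX library, Ctsl and Npc1 lower in every DOX library but not called by edgeR, and Atp6v0d2 and Ctsk stand out in PBS replicate 1.

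Set beside the promoter windows, the 10 genes with CACGTG had a median log2 fold change of 0.041, with values from -0.42 for Ctsl to 0.63 for Gla and 7 of 10 positive. The 21 genes whose window held no CACGTG had a median of 0.30, with 17 of 21 positive. Of the 8 genes with CATGTG, 8 had a positive value and their median was 0.48, against 16 of 23 and 0.071 without it. The CATGTG matches of Ctsa, Ctss, Tpp1 and Ppt1 lay after the start site. By library totals alone some of these signs turned, among them Ctsa and Tpp1 with CATGTG. Among those with CACGTG, the signs of Ctsa, Ctsd, Gaa and Lamp1 turned. GAGGAAG gave 5 of 8 positive and a median of 0.29, against 19 of 23 and 0.13 without it, and TGANTCA 4 of 4 and 0.23, against 20 of 27 and 0.12. Which promoter is used in these cells was not measured.

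Of the DOX libraries, replicate 1 was the highest for 28 of the 37 genes in CPM and the lowest for 2. Replicate 2 was the lowest for 21. These counts were not made over all genes, so they cannot be read as a trait of lysosomal genes. DOX replicate 1 also had the lowest TMM factor of the libraries (0.923), which raises its CPM. Among the DOX libraries the summed level of macrophage markers was at its highest in replicate 1 and at its lowest in replicate 2. All 12 of 12 were detected, 5 rose (edgeR adjusted p under 0.05, 4.38% of all genes), among them C1qb, C1qc, Aif1 and Fcer1g, and the median log2 fold change was 1.08. DESeq2 called 11 higher (11.6% of all genes) and limma-voom 5 (4.02% of all genes). At an unadjusted p under 0.05 in edgeR, 11 were higher (15.9% of all genes), and 0 were lower in any of these. For 11 all DOX libraries lay above all PBS libraries (16.9% of all genes). The sum was 4007, 4251 and 3055 CPM across PBS and 9678, 5119 and 6565 CPM across DOX. The most abundant, Lyz2 and C1qb, had log2 fold changes of 0.59 (edgeR adjusted p = 0.238) and 1.25 (edgeR adjusted p = 0.0453). All 7 of 7 Kupffer cell markers were detected and 0 were called by edgeR, 5 by DESeq2 and 1 by limma-voom, with 6 higher at an unadjusted p under 0.05. They had summed levels of 550 to 2584 CPM in PBS and 3015 to 5907 CPM in DOX, led by Marco and Cd5l. The part of these cells in the lysosomal values was not tested. In comparison, the sum of the 37 lysosomal genes was 32579, 31383 and 29358 CPM in PBS and 38595, 31624 and 33670 CPM in DOX, so that DOX replicate 2 lay within the PBS range.

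Markers of monocytes and lipid-associated macrophages (7 of 7 detected) summed to 1385, 776 and 604 CPM across PBS and to 968 to 1153 CPM in DOX. Itgam alone was called by edgeR and by limma-voom (1 higher, 0 lower). DESeq2 called 3 higher and 0 lower, namely Ccr2, Ly6c2 and Itgam (log2 fold changes 2.23, 1.57 and 1.05). The most abundant, Spp1 and Fabp5, had 0.26 and -0.28 with overlapping groups. PBS replicate 1, in which Atp6v0d2, Ctsk, Ctss and Ctsz were the highest of the PBS libraries, also held the highest sum of this list. Spp1 and Fabp5 made up most of it. Osteoclast markers (4 of 5 in the table, 3 tested, 0 called by edgeR or limma-voom, 1 higher and 1 lower by DESeq2 and at an unadjusted p under 0.05) summed to 405 to 668 CPM in PBS and 743 to 909 CPM in DOX, nearly all from Acp5, which is also counted below as a lysosomal hydrolase, and Ocstamp stood at 2.67 CPM in PBS.

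Stellate cell markers were all detected (12 of 12), with 0 called by edgeR, DESeq2 or limma-voom, 0 at an unadjusted p under 0.05 and sums of 599 to 1347 CPM in PBS and 726 to 1176 CPM in DOX, led by Dcn and Ecm1. Endothelial markers summed to more, at 6183 to 7416 CPM in PBS and 5254 to 6392 CPM in DOX (12 of 12 detected, led by Cdh5 and Lyve1), so RNA of more than stellate cells was present. Of the endothelial markers, edgeR called 2 lower, Tek and Ptprb, and limma-voom 3 lower. DESeq2 called 5 lower and 1 higher, and 5 were lower and 1 higher at an unadjusted p under 0.05 in edgeR. Myofibroblast markers (8 of 8 detected, 0 called by edgeR, 2 lower by DESeq2 and at an unadjusted p under 0.05, 0 by limma-voom) summed to 512 to 1233 and 527 to 907 CPM, led by Timp1 and Col3a1. Hepatocyte markers (11 of 11 detected, 0 called by edgeR or limma-voom, 6 higher by DESeq2 and 9 at an unadjusted p under 0.05), led by Alb and Ahsg, summed to 145 to 373 CPM in PBS and 251 to 3241 CPM in DOX, the highest in replicate 3. Neutrophil markers such as S100a8 and S100a9 (3 of 4 tested called higher) summed to at most 3.74 CPM in PBS and 26.7 CPM in DOX. T and NK cell markers such as Gzmb and Gzma (3 of 5 tested called higher) summed to at most 9.28 CPM in PBS and to 44.4 to 116 CPM in DOX. B cell markers such as Cd79b and Cd79a (2 tested, 0 called by edgeR, DESeq2 or limma-voom, 1 higher at an unadjusted p under 0.05) reached at most 3.96 CPM. Dendritic cell markers such as Clec9a and Zbtb46 (2 of 5 called higher, Flt3 and Siglech) reached at most 44.8 CPM, and cholangiocyte markers such as Krt19 and Krt7 (1 of 4 called higher, Epcam) at most 103 CPM. Of the neutrophil markers, Ly6g, Retnlg, Mpo and Elane were at 0 in some libraries. No marker in the table was at 0 in all 6 libraries.

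**Figure D4:**
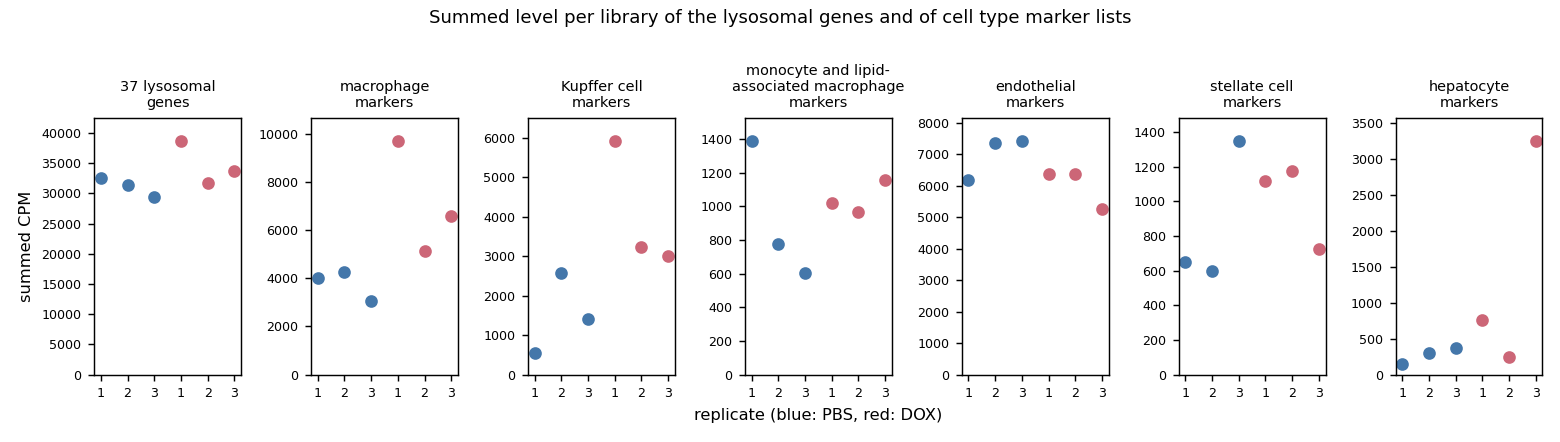
Summed CPM per library (vertical axes, from 0) of the 37 lysosomal genes and of 6 marker lists, for replicates 1, 2 and 3 of PBS (blue) and DOX (red). Macrophage and Kupffer cell markers are higher in every DOX library, and the lysosomal sum is highest in DOX replicate 1, at 38595 CPM.

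Beyond the 37 genes, 130 other lysosomal and autophagy genes were tested, of which edgeR called 4 higher and 3 lower, 5.38% of them together, where 4.38% of all genes were called higher and 2.04% lower. They had a median log2 fold change of 0.057. Of 37 other hydrolases and activators, Arsb and Rnaset2a rose and Dpp7 fell by edgeR and limma-voom, and DESeq2 called 6 higher and 2 lower. Arsb, a sulfatase gene of dermatan sulfate breakdown, rose from 4.80 ± 1.06 to 11.9 ± 3.58 CPM (SD, n = 3 each, edgeR adjusted p = 0.0410). Rnaset2a, a ribonuclease gene with a near-identical copy, Rnaset2b, between which reads may be split, rose 1.62-fold (edgeR adjusted p = 0.0301). Rnaset2b itself stood at 31.6, 16.7 and 12.0 CPM across PBS and at 24.6, 22.4 and 19.2 CPM across DOX. Its groups overlapped, with a log2 fold change of 0.13 (edgeR adjusted p = 0.83). The 2 copies were not tested together, so a rise of the pair is not shown. Dpp7, a dipeptidyl peptidase gene, fell from 110 ± 6.25 to 82.5 ± 3.19 CPM (edgeR adjusted p = 0.0356). Acp5, the tartrate-resistant phosphatase gene, had a log2 fold change of 0.77 and was not called (edgeR adjusted p = 0.0712).

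Of 27 other membrane proteins and transporters, edgeR and limma-voom called 1 higher, Slc15a3, and 0 lower, with 8 higher and 3 lower at an unadjusted p under 0.05 in edgeR. DESeq2 called 5 higher and 3 lower, the latter Ctns, Mcoln3 and Tpcn1. Slc15a3, a peptide and histidine transporter gene of endolysosomes in immune cells, rose from 394 ± 54.0 to 793 ± 171 CPM (SD, n = 3 each, edgeR adjusted p = 0.0334 for a log2 fold change of 1.01 with an SE of 0.19). The cystine exporter gene Ctns, Sidt2 and the low Mcoln3 had log2 fold changes of -0.46, 0.26 and -1.32 (edgeR adjusted p between 0.0526 and 0.0767). Of 16 other V-ATPase subunits 0 were called by edgeR, limma-voom or DESeq2, with 1 higher and 1 lower at an unadjusted p under 0.05. The 4 with the lowest p had log2 fold changes of 0.31 for Atp6v1e1, -0.34 for Atp6v1c1, 0.16 for Atp6v1d and -0.14 for Atp6v0a2.

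Of 19 genes of mTORC1 and TFEB control at the lysosome, edgeR and limma-voom called 2 lower and 0 higher, with 5 lower and 1 higher at an unadjusted p under 0.05 in edgeR. DESeq2 called 4 lower (Rptor, Tsc1, Tsc2 and Flcn) and 1 higher, Tfec (DESeq2 adjusted p = 0.0388). Rptor, which encodes the mTORC1 scaffold RAPTOR, fell from 76.1 ± 5.24 to 52.9 ± 4.32 CPM (SD, n = 3 each, edgeR adjusted p = 0.0328 for a log2 fold change of -0.53 with an SE of 0.097). Tsc1, which encodes a part of the complex that inhibits mTORC1, fell 1.37-fold from 50.6 ± 3.25 CPM (edgeR adjusted p = 0.0450 for a log2 fold change of -0.45 with an SE of 0.097). Flcn, the folliculin gene, and Tsc2 had -0.32 and -0.30 and groups that did not overlap (edgeR adjusted p = 0.0528 and 0.0625). The list as a whole had a median log2 fold change of -0.041, with 12 of 19 negative.

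Of 14 genes for the delivery of lysosomal enzymes 0 were called by edgeR or limma-voom, with 1 higher and 5 lower at an unadjusted p under 0.05, and 4 had DESeq2 adjusted p between 0.00422 and 0.0420. These were the adaptor genes Gga2 and Gga3 (log2 fold changes -0.54 and -0.36) and the mannose 6-phosphate receptor genes M6pr and Igf2r (0.34 and -0.38), and the groups of all 4 did not overlap. Of 12 autophagy genes known as TFEB targets 0 were called by edgeR or limma-voom and 1 by DESeq2 (Vps18), with 1 lower at an unadjusted p under 0.05, and 9 of 12 were negative. Vps18 (-0.31, edgeR adjusted p = 0.0676), Sqstm1, the abundant p62 autophagy receptor gene (-0.34, edgeR adjusted p = 0.185), Atg16l1 (-0.14) and Atg9b (-0.49) had the lowest p.

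Of 5 tested inhibitors of cathepsins all 5 had a positive log2 fold change and 1 rose, Serpinb1a, an inhibitor of neutrophil serine proteases and cathepsin G (1.77-fold, edgeR adjusted p = 0.0489). The call of Serpinb1a was lost in limma-voom (adjusted p = 0.0511) and by library totals alone (edgeR adjusted p = 0.0609). DESeq2 called Serpinb1a, Cst3 and Cst7, and limma-voom called Cst7 (adjusted p = 0.0470). Cst3, the cystatin C gene, stood at 315, 262 and 260 CPM across PBS and at 469, 344 and 411 CPM across DOX (edgeR adjusted p = 0.0644 for a log2 fold change of 0.55 with an SE of 0.14). Cst7, the cystatin F gene, whose product is known to inhibit cathepsin C, averaged 1.08 CPM over PBS and 4.28 CPM over DOX (edgeR adjusted p = 0.0784 for a log2 fold change of 1.98 with an SE of 0.56). Cstb, the cystatin B gene, had a log2 fold change of 0.19 (edgeR adjusted p = 0.351). All 7 genes of these lists that edgeR called lost the call without PBS replicate 2, without PBS replicate 3 and without DOX replicate 1. Of all genes, edgeR called 0 without PBS replicate 2 or 3 and 85 without DOX replicate 1, so these losses are not particular to the 7. Arsb and Tsc1 lost it without any 1 of the 6 libraries, and Dpp7, Rptor and Serpinb1a without any but DOX replicate 3. Slc15a3 also lost it without DOX replicate 2. With the replicate number as a block, the calls of Rnaset2a, Dpp7, Rptor and Tsc1 were lost (edgeR adjusted p = 0.0535, 0.0595, 0.0648 and 0.0617).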

How the data were processed

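Per the labels' protocols, extraction used an RNeasy kit and a SMARTER mRNA-Seq kit made the libraries. The authors deposited raw counts per gene symbol and FPKM values of the same genes, 1 column per library. Within each of 20588 genes, FPKM was proportional to count over library total (relative tolerance 1e-04, 100%). The submitters' processing notes list the builds GRCm38, mm10 and hg38 without saying what each was for. The aligner, the counter and the strand setting were not given in the sources used here.

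Counts were tested with edgeR 4.0.16 (glmQLFit and glmQLFTest, R 4.3.3, TMM, filterByExpr with minimum count 10 and minimum total count 15) on all 6 libraries with group as the only term, two-sided, with Benjamini-Hochberg adjustment over all 14439 genes and a threshold of 0.05. Adjusted p are from this fit unless named otherwise. The SE comes from the F statistic. Values after ± are SDs of 3 libraries. Groups and replicate numbers come from the titles. Chi-square per degree of freedom between replicates was 38.6 to 82.1, so no library repeated another. The code was tested on simulated data.

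The 37 genes and the other lists were chosen with earlier results of these data known. All 37 are accounted for. Outside them the text names up to 4 genes of lowest p per pathway list, the 2 markers of highest FPKM per marker list, and called genes. Alternatives were RLE factors, scaling by library totals only, testing without the low-count filter, DESeq2 1.42.0, limma-voom (limma 3.58.1), the replicate number as a block, and leaving out each library. The whole windows of Ctsc and Scarb2 and the short windows were chosen after the values were seen. Promoter sequences are from the RefSeq table of GRCm38.p6, which also gave gene positions.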

Additional observations from a re-analysis of the deposited data

How the results depend on the processing

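Scaled to library totals alone, edgeR called 730 of all genes lower and 2 of the 37 lysosomal genes lower (Ctsl and Npc1), against 294 and 0. It called 3 of the 37 higher (Ctsc, Ctsh and Gla), against 4. Of the other lysosomal genes it called 15 in either direction, against 7. Log2 fold changes then turned sign for Ctsa (-0.013), Ctsd (-0.11), Tpp1 (-0.081), Gaa (-0.12), Psap (-0.073), Lipa (-0.012), Lamp1 (-0.065), Atp6ap1 (-0.058) and Tfe3 (-0.00034), all uncalled. DESeq2 called 2692 genes, 1677 higher and 1015 lower, 10 of the 37 (7 higher, 3 lower) and 29 others. With the replicate number as a block, edgeR called 781 genes, 159 of them lower. These held 2 of the 37, both higher (Ctsc and Mitf), and 3 other lysosomal genes in either direction. Deviations of same-numbered libraries correlated at 0.0949, -0.106 and 0.232, and not every library correlated best with its own number. With 3 libraries per group these values cannot decide whether the numbers mark a pairing or a batch. RLE factors, limma-voom and no filter left the counts over all genes, over the 37 and over the other lysosomal genes within 1.5 times of the reported ones.

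Leaving out 1 library at a time gave 0 to 1090 genes in all, 0 to 722 higher and 0 to 368 lower, 0 to 3 of the 37, all higher, and 0 to 8 others. The counts were 0 without PBS replicate 2 (3294 genes at an unadjusted p under 0.05) and without PBS replicate 3 (3092). Without DOX replicate 1 the 37 genes held 0 calls, where only 85 of all 14736 genes then tested were called. Over these fits, uncalled genes that turned sign ranged from -0.049 to 0.13 for Ctsd, -0.73 to 0.0087 for Ctsk, -0.24 to 0.017 for Gusb, -0.041 to 0.085 for Gaa, -0.21 to 0.12 for Tfeb, -0.0028 to 0.092 for Tpp1, -0.11 to 0.24 for Psap and -0.021 to 0.26 for Lipa. The causes were not tested. The lowest count of any of the 37 genes in a library was 261 reads, for Galns, and the part of depth was not tested.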

Other observations

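Gpnmb, a gene of a lysosomal membrane glycoprotein of macrophages known as a TFE3 and MITF target, was looked at after its values were seen, beside Atp6v0d2. It stood at 2608, 1090 and 979 CPM in PBS replicates 1, 2 and 3 and at 948, 645 and 1598 CPM in DOX replicates 1, 2 and 3 (log2 fold change -0.55, edgeR adjusted p = 0.471). For both genes PBS replicate 1 was the highest library and DOX replicate 2 the lowest. DOX replicate 3 was second for Gpnmb. For Atp6v0d2 it was level with PBS replicates 2 and 3 (74.1 against 71.2 and 73.4 CPM). The groups do not give such an order across libraries.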
